A study of Mus musculus with 9 samples.

Results

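Interferon response genes were examined in spontaneously beating cells that arise in cultures of mouse adipose tissue. The set comprised 32 gene symbols, and a gene was analysed where the array annotation gave a row to its symbol alone. Where a gene had several rows, the row with the highest mean over the beating and non-beating arrays stood for it. By this rule 29 of the 32 genes were analysed, out of 19938 genes with a row of 1 symbol among 33323 rows. Isg15 and Gbp2 appeared only on rows with several symbols, and Ifi44 was not analysed here.

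The cells were the stromal vascular fraction of subcutaneous adipose tissue of C57BL6/J mice aged 10 weeks, grown in minimal medium with no inducing agent. At day 28 beating colonies were picked by hand and combined into a sample (n = 4), and the remaining cells of the dishes were collected as non-beating cells (n = 4). A beating sample thus held colonies of several dishes of 1 lot, and a non-beating sample was a mixture of every other cell type that grew there. In addition, 6 round cells of day 14, picked singly with a robotic capillary, formed 1 pool on 1 array. Whether replicates of a group were grown from different animals is not labelled, and the p-values therefore measure the spread between these samples, which may be technical. Amplified RNA was hybridised to Affymetrix Mouse Gene 1.0 ST arrays, and each value is a log2 signal that includes background. The medians of the 8 day 28 arrays lay between 3.08 and 3.17 and that of the round pool at 3.54. As a check of the labels, 8 of 8 striated muscle markers were higher in beating cells, with a list mean of 10.07 to 10.28 in beating, 3.89 to 4.39 in non-beating and 10.16 in round cells.

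Interferons are secreted proteins that warn cells of viral infection. Type I interferons bind the Ifnar1 and Ifnar2 receptor chains and act through the kinases Jak1 and Tyk2 to assemble a complex that contains Stat2 and Irf9 and binds the interferon-stimulated response element of its target genes. Interferon gamma binds Ifngr1 and Ifngr2 and acts through Jak1 and Jak2 on genes with a gamma-activated site. Many of the target genes are also expressed at a low, tonic level in uninfected cells, and among them are antiviral effectors, sensors of viral RNA and the machinery that presents peptides on class I molecules.

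Promoter windows of RefSeq on GRCm38.p6, from 250 bases before to 50 bases after a start, were found for 27 of the 32 symbols and for 24 of the 29 analysed genes. The entries for Oas2, Mx1, Mx2, Usp18 and Rtp4 were missing. The core of the response element was searched as GAAANNGAAA on either strand, that is also as TTTCNNTTTC. It lay in the windows of 12 of the 24 analysed genes, or 50%, against 3.99% of 27025 genes and 3.44% of all 32851 windows. It was present in 5 of the 9 genes with a window that were lower in beating cells (55.6%) and in 7 of the 15 that did not pass the test (46.7%). The letters of the gamma-activated site, TTCNNNGAA, which read the same on both strands, were found in 8 of the 24 genes (33.3%), against 9.55% of genes and 8.30% of all windows. A match is a description of the letters in the window and is not evidence of binding.

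The matches in 5 genes that were lower in beating cells are printed first because the results turn on these genes. Each line gives 30 bases on the strand of the gene, 5′ to 3′, with the matched letters in capitals. They lie at chr7:140955988-140956017 for Ifitm2, chr7:141010714-141010743 for Ifitm3, chr8:71537580-71537609 for Bst2, chr2:62646206-62646235 for Ifih1 and chr4:40239804-40239833 for Ddx58, all on the minus strand. The Ifitm2 match began 46 bases and the first Bst2 match 130 bases before the start, whereas those of Ifitm3, Ifih1 and Ddx58 lay after it.
Ifitm2: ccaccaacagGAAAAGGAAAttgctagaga
Ifitm3: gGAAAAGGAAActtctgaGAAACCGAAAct
Bst2: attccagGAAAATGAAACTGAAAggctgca
Ifih1: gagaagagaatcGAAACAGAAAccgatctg
Ddx58: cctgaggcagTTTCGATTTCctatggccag

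The same letters in genes that did not pass the test are shown for comparison. These lie at chr19:34640785-34640814 for Ifit1, chr19:34583397-34583426 for Ifit3 and chr2:122147538-122147567 for B2m on the plus strand, and at chr5:120907523-120907552 for Oas1a on the minus strand. The letters thus occurred in genes that were called and in genes that were not.
Ifit1: TTTCACTTTCcagtctcagTTTCAGTTTCt
Ifit3: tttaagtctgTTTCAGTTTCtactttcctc
B2m: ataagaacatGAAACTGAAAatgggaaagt
Oas1a: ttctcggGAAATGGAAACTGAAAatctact

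Psmb9 and Tap1 are transcribed away from each other, and 225 bases at chr17:34187331-34187555 separate the RefSeq starts. This shared stretch is printed on the plus strand, in the direction of Tap1, because both neighbours were lower in beating cells. It contained 0 matches to either set of letters, and its GC content was 61.3%.
Psmb9-Tap1: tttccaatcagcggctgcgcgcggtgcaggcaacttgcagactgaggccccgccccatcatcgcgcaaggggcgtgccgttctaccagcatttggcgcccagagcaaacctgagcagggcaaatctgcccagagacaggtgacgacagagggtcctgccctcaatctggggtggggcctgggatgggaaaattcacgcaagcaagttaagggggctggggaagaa

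Interferon response genes were lower in beating cells than in non-beating cells or showed no difference that passed the test. Of the 29 genes, 10 were lower, 0 were higher and 19 did not pass the limma test at an adjusted p under 0.05 over all rows. Of all rows, 3.34% were lower and 2.82% were higher, and of the genes of 1 symbol, with 1 row a gene, 4.11% were lower. At an unadjusted p under 0.05, 14 of the 29 genes were lower and none higher, whereas 12.0% of all rows were lower. The 4 beating values lay below all 4 non-beating values in 11 genes, namely the 10 called genes and Oasl2, a pattern found in 8.24% of all rows, and above them in 0 genes and in 5.98% of all rows. The median log2 difference, beating minus non-beating, was -0.36 over the 29 genes and 0.0073 over all rows. Differences of the 10 called genes ranged from 1.31-fold to 2.25-fold. The count depended on single arrays, as 4 genes were lower without non-beating replicate 2, 5 without non-beating replicate 1 or 4 and 6 without beating replicate 2 or 3. Not all were among the 10, as B2m was counted without non-beating replicate 1 and Gbp3 without beating replicate 2. In these bulk samples, fewer cells of an expressing type and less RNA per cell cannot be told apart.

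**Figure D1:**
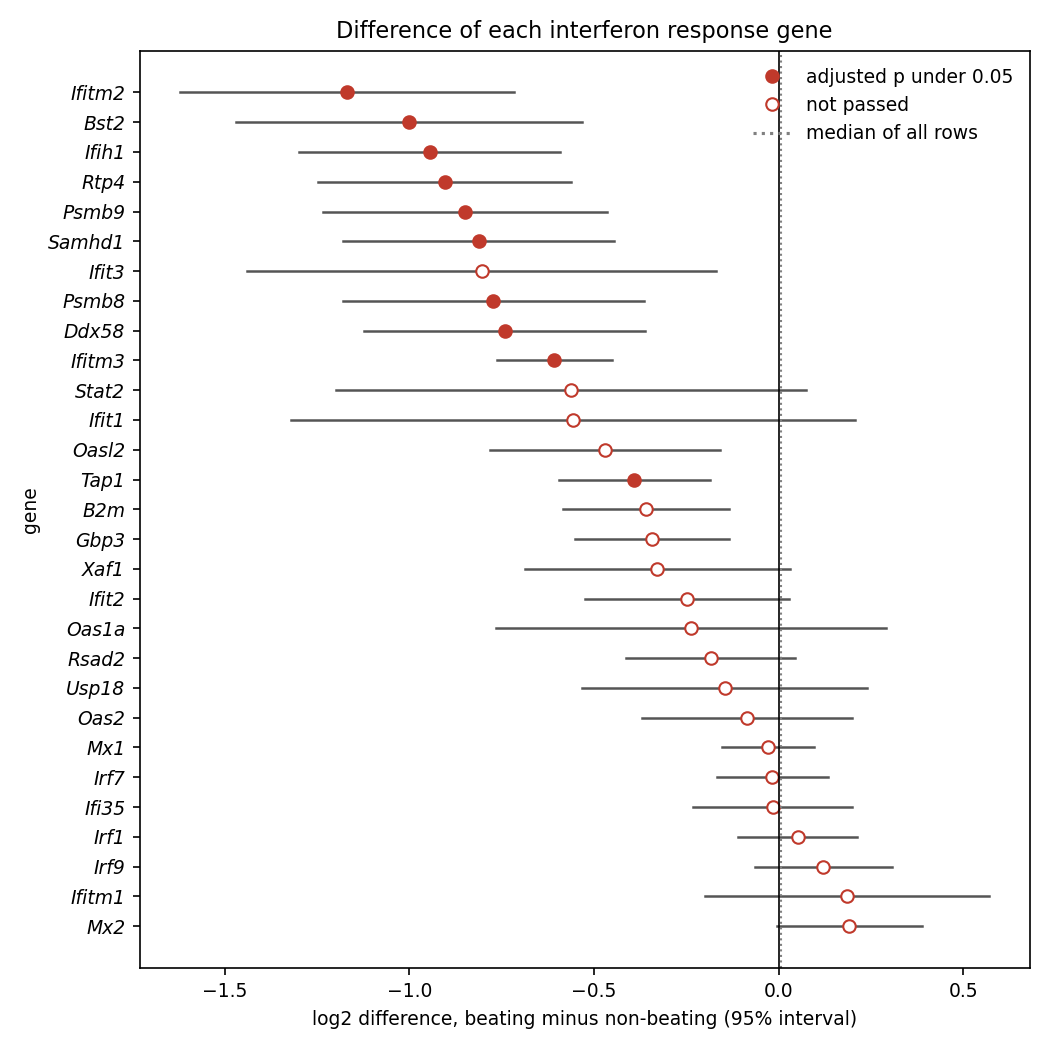
Log2 difference, beating minus non-beating, of each of the 29 interferon response genes, with the 95% interval of the limma fit (n = 4 a group). Filled points passed an adjusted p under 0.05 and open points did not; the dotted line is the median of all rows, and 25 of the 29 points lie below 0.

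The calls followed the signal of the rows. None of the 7 genes with a mean signal below the highest array median (3.17) was called, and 0.176% of all genes in that range were lower. Between this median and the 75th percentile of the rows (5.00), 5 of 14 genes were lower, and 3.35% of all genes were. Above the 75th percentile, 5 of 8 genes were lower, and 11.4% of all genes were. The median difference in these classes was -0.03, -0.43 and -0.77 for the interferon response genes and 0.017, -0.03 and -0.14 for all genes. The classes were chosen after the values were seen.

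**Figure D2:**
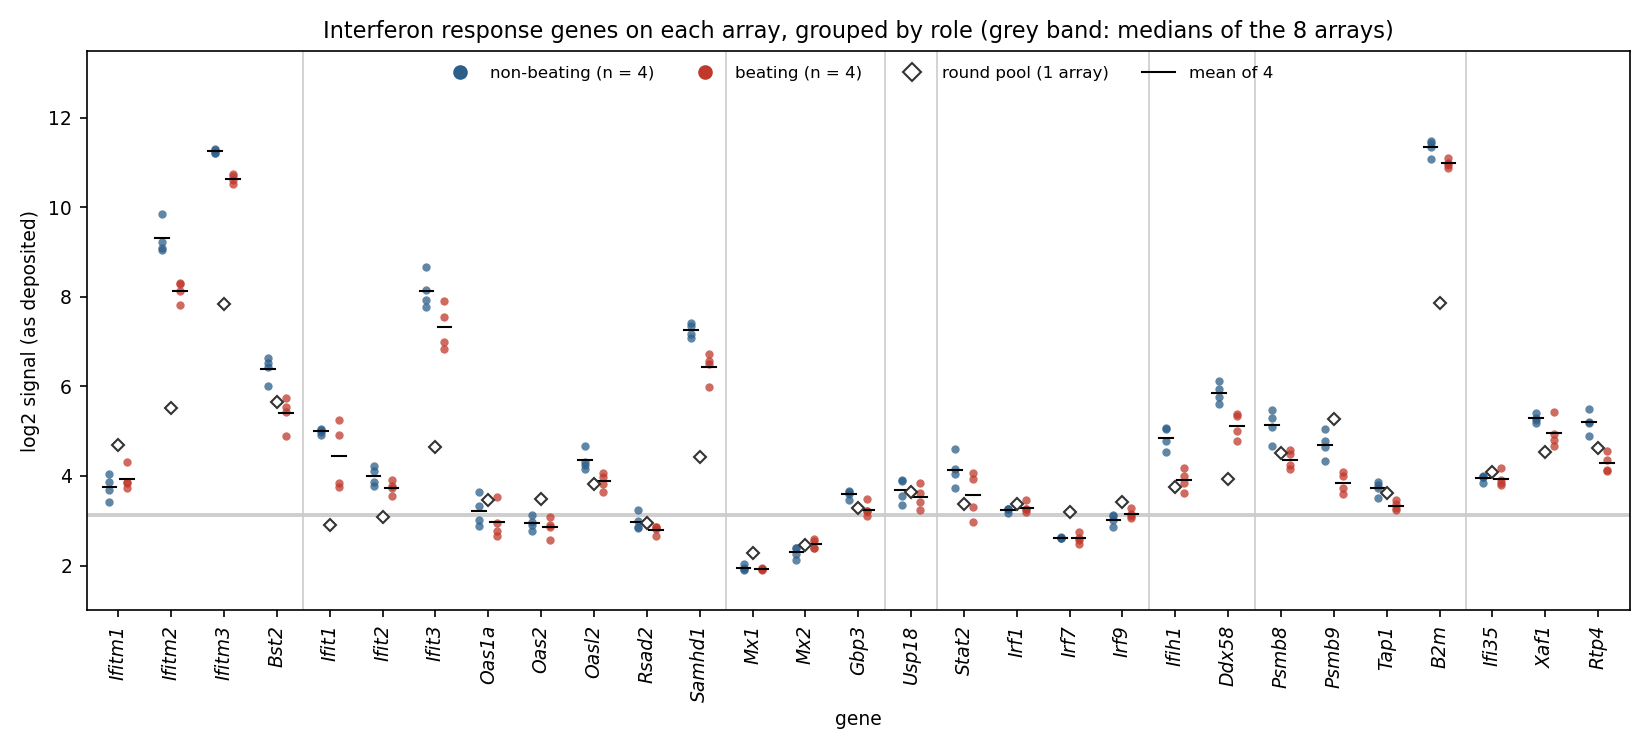
Log2 signal of each interferon response gene on every array, with genes grouped by role from membrane proteins on the left to other induced genes on the right. Dots are the 4 non-beating and 4 beating arrays, bars their means, diamonds the single round pool array, and the grey band the medians of the 8 arrays; the beating dots of Ifitm2, Ifitm3, Bst2 and Samhd1 lie wholly below the non-beating dots.

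Among the membrane proteins that block viral entry or release, 3 of 4 genes were lower in beating cells. Ifitm2, which restricts the fusion of viruses with endosomes, had signals of 7.82, 8.13, 8.29 and 8.32 in the 4 beating samples and 9.86, 9.24, 9.08 and 9.05 in the 4 non-beating samples. The groups did not overlap, and the log2 difference was -1.17 (SE 0.20, 95% interval -1.62 to -0.72, adjusted p = 0.0136), or 2.25-fold. The annotation gave 2 further rows to Ifitm2, whose differences were -1.22 (adjusted p = 0.00047) and -1.03 (adjusted p = 0.00028). Ifitm3, nearby on chromosome 7 and with the same function, had signals of 10.60, 10.52, 10.75 and 10.70 in beating and 11.27, 11.22, 11.30 and 11.21 in non-beating cells. Its values within each group were close together, and the difference of -0.61 (SE 0.07, adjusted p = 0.00208) corresponded to 1.52-fold. The Ifitm genes are close paralogues, so probes of 1 row could bind transcripts of another.

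Ifitm1, which lies between Ifitm2 and Ifitm3 on chromosome 7, behaved differently on its brighter row. It had 4.31, 3.72, 3.85 and 3.86 in beating and 4.04, 3.70, 3.41 and 3.86 in non-beating cells. The groups overlapped, and the difference was 0.19 (95% interval -0.20 to 0.57, adjusted p = 0.601). Its second, dimmer row had a difference of the opposite sign, -0.36 (adjusted p = 0.191). Bst2, or tetherin, holds budding virus particles at the cell surface. Its signals were 4.88, 5.54, 5.43 and 5.73 in beating and 6.44, 6.52, 6.0 and 6.63 in non-beating cells. All beating values were the lower, with a difference of -1.0 (SE 0.20, adjusted p = 0.0288), or 2.0-fold.

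Of 8 effectors that bind or degrade viral RNA or nucleotides, only Samhd1 passed the test. Samhd1 hydrolyses the deoxynucleotides that reverse transcription needs, and its signals were 6.56, 5.99, 6.51 and 6.71 in beating and 7.42, 7.17, 7.35 and 7.08 in non-beating cells. The groups were apart, with a difference of -0.81 (SE 0.16, adjusted p = 0.0251), or 1.76-fold. The Ifit proteins bind viral RNA lacking host cap marks, and none of the 3 genes passed. Ifit3 had 7.55, 7.90, 7.0 and 6.85 in beating and 8.67, 8.15, 7.93 and 7.77 in non-beating cells. Beating replicate 2, at 7.90, exceeded non-beating replicate 4, and the difference of -0.80 had an adjusted p of 0.141. Its neighbour Ifit1 split the beating group, with 4.91 and 5.26 in replicates 1 and 2 but 3.76 and 3.84 in replicates 3 and 4, against 4.92 to 5.05 in non-beating cells. The difference was -0.56 with a 95% interval of -1.32 to 0.21 (adjusted p = 0.399). Ifit1 and Ifit3 were thus both higher in beating replicates 1 and 2 than in beating replicates 3 and 4. Ifit2, the remaining Ifit gene of the set, had 3.55 to 3.91 in beating and 3.77 to 4.22 in non-beating cells (-0.25, adjusted p = 0.291). All 3 lie within chr19:34550550-34650009.

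The oligoadenylate synthetase family makes the messenger that activates RNase L. Oasl2, an oligoadenylate synthetase-like protein, had 3.82, 4.08, 3.63 and 3.98 in beating and 4.25, 4.32, 4.66 and 4.17 in non-beating cells. The groups did not overlap, but the difference of -0.47 missed the threshold (adjusted p = 0.0875). Oas1a (-0.24, adjusted p = 0.627) and Oas2 (-0.09, adjusted p = 0.755) had overlapping groups near the array medians. Rsad2, or viperin, which makes a chain-terminating nucleotide, had a difference of -0.18 (adjusted p = 0.347), likewise at a signal near the array medians.

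No GTPase of the set and no transcription factor passed the test, and at an unadjusted p under 0.05 in limma only Gbp3 did. The dynamin-like Mx1 and Mx2 belong to a family whose proteins can trap viral nucleocapsids. Both had signals below the array medians on all 8 arrays, with differences of -0.03 (adjusted p = 0.816) and 0.19 (adjusted p = 0.254). Gbp3, a guanylate-binding protein, ranged from 3.10 to 3.47 in beating and from 3.47 to 3.67 in non-beating cells, and its difference of -0.34 had an adjusted p of 0.0679. Usp18, the protease that removes Isg15 from its targets and dampens receptor signalling, had a difference of -0.15 (95% interval -0.53 to 0.24, adjusted p = 0.690).

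Stat2, a subunit of the complex that type I interferon assembles, had 3.31, 2.97, 3.92 and 4.06 in beating and 4.6, 4.04, 4.15 and 3.73 in non-beating cells. The values overlapped, and the difference was -0.56 (95% interval -1.20 to 0.07, adjusted p = 0.299). Irf9, the DNA-binding subunit of the same complex, differed by 0.12 (95% interval -0.07 to 0.31, adjusted p = 0.460). Irf1, which binds the response element downstream of interferon gamma, and Irf7, which amplifies type I interferon production, differed by 0.05 (adjusted p = 0.745) and -0.02 (adjusted p = 0.915). Irf7 was below the array medians on all 8 arrays. Of the 19 genes that did not pass, 13 had a 95% interval that lay within 1.5-fold in either direction, among them Irf1, Irf7 and Irf9. Of the 13, Oas2, Rsad2, Mx1, Mx2, Irf7 and Irf9 had a mean signal below the highest array median (3.17). At such a signal a narrow interval is no evidence of equal expression. The intervals of Stat2, Ifit1, Ifit3, Oas1a, Oasl2 and Xaf1 reached beyond 1.5-fold on the side of lower signal in beating cells.

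Both cytoplasmic sensors of viral RNA were lower in beating cells. Ifih1, or MDA5, recognises long double-stranded RNA, and its signals were 3.85, 3.63, 3.99 and 4.17 in beating and 4.54, 5.04, 4.78 and 5.07 in non-beating cells. The highest beating value was below the lowest non-beating value, with a difference of -0.95 (SE 0.15, adjusted p = 0.0119), or 1.93-fold. Ddx58, or RIG-I, recognises RNA with an uncapped triphosphate end, and its signals were 4.77, 5.00, 5.38 and 5.33 in beating and 5.61, 5.77, 5.95 and 6.13 in non-beating cells. Here too the groups were apart, with a difference of -0.74 (SE 0.16, adjusted p = 0.0395), or 1.67-fold.

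Of 4 genes of antigen processing, 3 were lower in beating cells, and these are neighbours within chr17:34182030-34201454. Psmb8 and Psmb9 encode catalytic subunits of the immunoproteasome, which cuts proteins into peptides. Psmb8 had 4.15, 4.57, 4.48 and 4.25 in beating and 5.47, 5.31, 4.67 and 5.11 in non-beating cells. Psmb9 had 3.60, 3.72, 4.09 and 3.99 in beating and 4.66, 5.04, 4.34 and 4.77 in non-beating cells. Tap1, a chain of the transporter that carries the peptides into the endoplasmic reticulum, had 3.28, 3.46, 3.24 and 3.37 in beating and 3.86, 3.74, 3.52 and 3.79 in non-beating cells. The groups were apart in all 3 genes, and in each of them non-beating replicate 3 was the lowest non-beating value. The differences were -0.77 for Psmb8 (SE 0.18, adjusted p = 0.0427), -0.85 for Psmb9 (SE 0.17, adjusted p = 0.0253) and -0.39 for Tap1 (SE 0.09, adjusted p = 0.0414), or 1.71-fold, 1.80-fold and 1.31-fold. B2m, the light chain of class I molecules that present these peptides, had 10.89 to 11.10 in beating and 11.09, 11.34, 11.45 and 11.49 in non-beating cells. Non-beating replicate 1 lay among the beating values, and the difference of -0.36 had an adjusted p of 0.0740.

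Of the other induced genes, Rtp4, a chaperone of membrane receptors, was lower. Its signals were 4.13, 4.56, 4.11 and 4.36 in beating and 5.51, 5.18, 4.90 and 5.20 in non-beating cells. The groups were apart, with a difference of -0.90 (SE 0.15, adjusted p = 0.0124), or 1.87-fold. Xaf1, a proapoptotic zinc finger protein, differed by -0.33 (adjusted p = 0.283), and beating replicate 1, at 5.43, was above all 4 non-beating values of 5.19 to 5.41. Ifi35 had 3.81 to 4.18 in beating and 3.83 to 4.01 in non-beating cells (-0.02, 95% interval -0.23 to 0.20, adjusted p = 0.946).

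The stability of the calls differed between genes. Ifitm2, Ifitm3, Ifih1 and Rtp4 passed the test when any 1 of the 8 arrays was left out. Psmb8 and Tap1 lost the call in 7 of these 8 fits, with adjusted p up to 0.124 and 0.112, Ddx58 in 6 (up to 0.108), Bst2 in 5 (up to 0.0898), Psmb9 in 5 (up to 0.0686) and Samhd1 in 4 (up to 0.0779). With the two-sample test named in the study's methods and the same adjustment, Ifitm3 alone was lower, against 1.13% of all rows. The row that stood for Ifitm2 did not pass this test (adjusted p = 0.0577), but its 2 further rows did (adjusted p = 0.00512 and 0.00272). The difference of each of the 10 called genes was below 0 in every one of these fits. This outcome was fixed in advance, as the groups of these genes did not overlap.

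Macrophage markers also had a lower mean in beating than in non-beating cells. The mean of 15 macrophage markers was 3.31, 4.02, 4.22 and 5.16 in the 4 beating samples, 5.27, 6.40, 5.31 and 6.65 in the 4 non-beating samples and 3.77 in the round pool. All 15 differences were below 0, 2 of them passing the test (Fcgr3 and Mpeg1), and Cd163 was below the array medians on all 8 arrays. The mean of the 29 interferon response genes was 4.53, 4.51, 4.51 and 4.54 in beating and 5.03, 4.95, 4.86 and 4.91 in non-beating cells. The mean of the 10 called genes alone was 5.37, 5.51, 5.63 and 5.69 in beating and 6.46, 6.42, 6.19 and 6.40 in non-beating cells. Over the beating samples the called genes had the same order as the macrophage markers, whereas the mean of all 29 genes was nearly level. Over the non-beating samples replicate 1 had the highest mean of the 29 genes and of the called genes and the lowest macrophage mean. Without non-beating replicates 2 and 4, which had the highest macrophage means, the median difference of the 29 genes was -0.37 and 1 gene was lower. Without beating replicate 1 as well, the median difference was -0.42 and 0 genes were lower by limma. These last 2 fits were chosen after seeing the data and leave 2 non-beating arrays.

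Lists of fibroblast and adipocyte markers had lower means in beating cells as well. The mean of 7 fibroblast and stroma markers was 6.59 to 6.95 in beating and 7.30 to 7.88 in non-beating cells. In the beating samples it was again in the order of the called genes. In non-beating replicates 1 to 4 it was 7.88, 7.54, 7.66 and 7.30, which was not their order. Of these 7 markers 3 were lower by the test. Differences were above 0 in 2 of the 7, Col1a1 (0.46, adjusted p = 0.371 in limma) and Col1a2 (0.04, adjusted p = 0.954). The mean of 7 adipocyte markers was 4.20 to 4.61 in beating and 5.14 to 5.45 in non-beating cells, with 3 of 7 lower. Within the adipocyte list Cidec and Lep were below the array medians on all 8 arrays. The endothelial mean overlapped, at 3.58 to 5.39 in beating and 4.43 to 5.39 in non-beating cells, and 0 of 8 markers passed limma's test, adjusted or not. In beating replicates 1 to 4 it was 3.58, 4.65, 5.05 and 5.39, which was also the order of the called genes. Over the non-beating samples the endothelial mean had a different order from the called genes. Of the lymphocyte markers 5 of 8, and of the dendritic cell markers 5 of 5, including Siglech, Flt3 and Itgax, were below the array medians on all 8 arrays. Of the lymphocyte markers with signal, Ptprc, which all leukocytes express, had 3.18, 3.18, 3.58 and 3.78 in beating and 3.75, 5.26, 3.75 and 5.69 in non-beating cells (-1.18, adjusted p = 0.191). Cd3g, a chain of the T cell receptor complex, had 4.45, 6.41, 3.52 and 4.74 in beating and 2.63 to 2.92 in non-beating cells (2.01, adjusted p = 0.0670), while Cd3e lay between 3.0 and 3.33 on the 8 arrays (-0.08, adjusted p = 0.724). The part of these cell types in the lower interferon response genes was not tested.

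**Figure D3:**
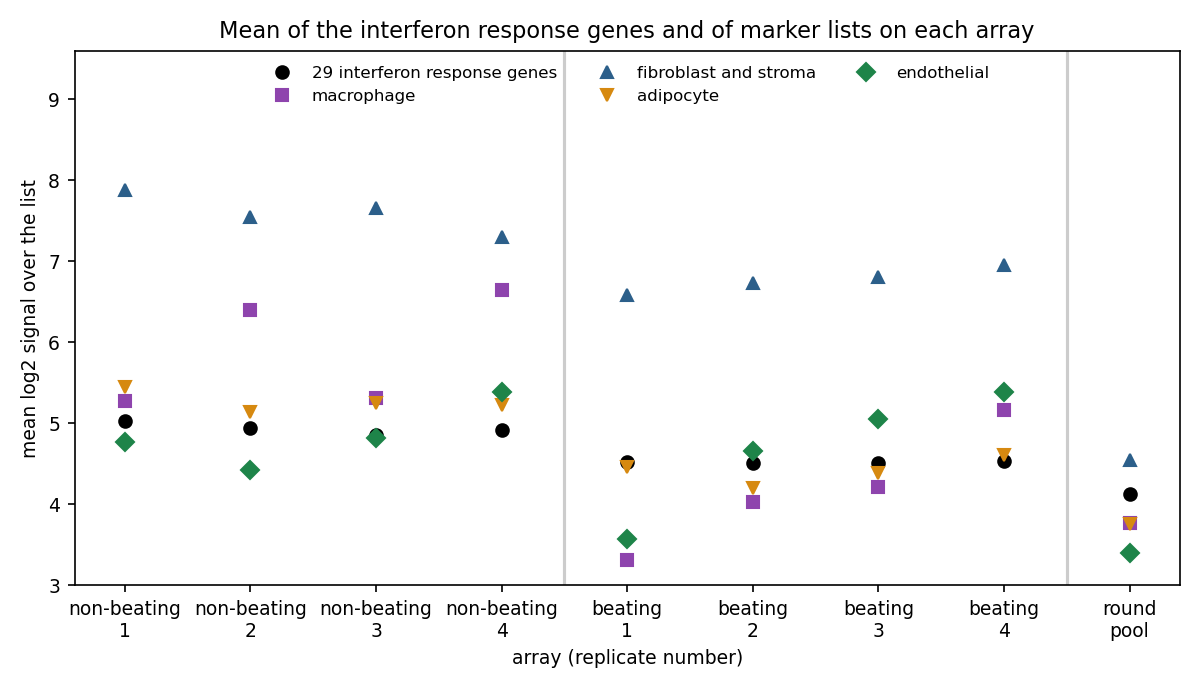
Mean log2 signal of the 29 interferon response genes and of 4 lists of cell type markers on each of the 9 arrays; the vertical axis starts at 3. The interferon means lie between 4.51 and 4.54 on the 4 beating arrays and between 4.86 and 5.03 on the 4 non-beating arrays, and the macrophage means between 3.31 and 5.16 and between 5.27 and 6.65; the 10 called genes, not drawn, had means of 5.37 to 5.69 and 6.19 to 6.46.

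The wider pathway was described with 107 further genes, of which 92 had a row of 1 symbol. Of these 92 genes, 15 were lower, 3 were higher and 74 did not pass, with a median difference of -0.20. Over all genes of 1 symbol 4.11% were lower and 2.84% higher, so the share of higher genes in the list was near that of all genes. Of 7 interferon genes 0 passed limma's test and 1, Ifnl2, had an unadjusted p under 0.05. Its mean signal was 4.44 in beating and 4.73 in non-beating cells, above the array medians (-0.28, adjusted p = 0.195). The rows of Ifnb1 (1.94 in beating and 1.90 in non-beating cells) and Ifng (2.59 and 2.50) were below the array medians.

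Of the 6 receptor chains 2 were lower. Ifnar2, a chain of the type I receptor, had 6.96, 7.24, 7.17 and 7.61 in beating and 7.96, 8.01, 7.82 and 8.11 in non-beating cells. Ifngr2, the signalling chain of the interferon gamma receptor, had 6.27, 6.56, 6.74 and 6.90 in beating and 7.35, 7.47, 7.40 and 7.25 in non-beating cells. The groups were apart in both, with differences of -0.73 (adjusted p = 0.0209) and -0.75 (adjusted p = 0.0160). Their partner chains Ifnar1 (-0.70, adjusted p = 0.118) and Ifngr1 (-0.43, adjusted p = 0.0594) and the lambda receptor chain Il10rb (-0.93, adjusted p = 0.0769) did not pass. All beating values were below all non-beating values in these chains too, and so in 5 of the 6 receptor chains, against 8.24% of all rows. Ifnlr1, the other lambda receptor chain, was below the array medians on all 8 arrays, with a difference of 0.01 (adjusted p = 0.962).

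Among the signalling molecules Jak2, the kinase bound to Ifngr2, was lower. It had 5.44, 5.76, 6.08 and 6.18 in beating and 6.46, 6.93, 6.85 and 6.98 in non-beating cells, with no overlap and a difference of -0.94 (adjusted p = 0.0246). Jak1, shared by all interferon receptors, had groups that did not overlap either, with 8.18, 8.36, 9.01 and 9.01 in beating and 9.56, 9.45, 9.41 and 9.18 in non-beating cells, but its difference of -0.76 did not pass (adjusted p = 0.0735). Tyk2 differed by 0.15 (adjusted p = 0.272) at a signal below the array medians.

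Of the sensors and regulators outside the 29 genes, Tlr3, the endosomal receptor of double-stranded RNA, was lower, with a difference of -0.87 (adjusted p = 0.00624). Irf8, a factor of myeloid cells (-0.29, adjusted p = 0.0326), and Socs3, a feedback inhibitor of JAK kinases (-0.44, adjusted p = 0.0293), were lower as well. Tlr3 had 4.36, 4.83, 4.72 and 4.84 in beating and 5.49, 5.45, 5.55 and 5.74 in non-beating cells, which were well separated. Each of these was the only gene of its list that was called, out of 13 sensors and adaptors, 5 interferon regulatory factors and 6 negative regulators.

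Of 27 further antiviral effectors 6 were lower and 0 higher by limma, or 11 and 1 at an unadjusted p under 0.05. Eif2ak2, the kinase PKR that halts translation on sensing double-stranded RNA, had 4.80, 5.26, 5.53 and 5.49 in beating and 6.33, 6.19, 6.48 and 6.56 in non-beating cells. This separation gave a difference of -1.12 (adjusted p = 0.00835), or 2.17-fold. Trim30a differed by -1.34 (adjusted p = 0.0296) and Sp100, a component of nuclear bodies, by -0.98 (adjusted p = 0.0120). In antigen processing 2 of 12 further genes were lower, the proteasome activator Psme1 (-0.58, adjusted p = 0.0267) and the peptide-trimming protease Erap1 (-0.52, adjusted p = 0.0281). Of the lower genes named here, Tlr3 and Eif2ak2 passed in all 12 alternative fits made for the further pathway genes, and Sp100 lost the call in 1. Ifngr2 lost it in 4, Jak2 in 5, Ifnar2 and Trim30a in 6, Socs3 and Psme1 in 7, Irf8 in 8 and Erap1 and Iigp1 in 9 of the 12, with adjusted p up to 0.117.

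The 3 genes that were higher in beating cells were all guanylate-binding proteins, GTPases that attack the vacuoles of intracellular pathogens, and they are neighbours within chr5:105012513-105139586. Gbp4 had 4.49, 5.09, 4.08 and 4.02 in beating and 2.84, 2.79, 2.87 and 2.91 in non-beating cells. Gbp8 had 6.21, 6.80, 6.16 and 6.10 in beating and 3.51, 3.93, 2.94 and 5.27 in non-beating cells. Gbp9 had 6.17, 6.09, 6.05 and 6.20 in beating and 4.16, 4.41, 3.79 and 5.49 in non-beating cells. In all 3 genes every beating value was above every non-beating value, and non-beating replicate 4 was the highest of its group. The mean of the 8 striated muscle markers in non-beating replicates 1 to 4 was 3.91, 4.16, 3.89 and 4.39, in the same order as Gbp8 and Gbp9 but not Gbp4. In beating replicates 1 to 4 it was 10.28, 10.07, 10.08 and 10.17, which was the order of neither Gbp8 nor Gbp9. The part of muscle cells in these values was not tested. The non-beating values of Gbp4 were below the array medians. The differences were 1.57 for Gbp4 (SE 0.22, adjusted p = 0.00637), 2.40 for Gbp8 (SE 0.45, adjusted p = 0.0220) and 1.67 for Gbp9 (SE 0.32, adjusted p = 0.0241). Gbp4 passed in all 12 alternative fits, whereas Gbp8 lost the call in 5 and Gbp9 in 8, with adjusted p up to 0.0853 and 0.0875. These genes are near copies of each other, so a row may have bound transcripts of another member. Gbp3, which lies on chromosome 3, was not among the genes that were higher, and of the 7 genes of this list Iigp1, named for the count alone, was lower (-0.98, adjusted p = 0.0402).

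**Figure D4:**
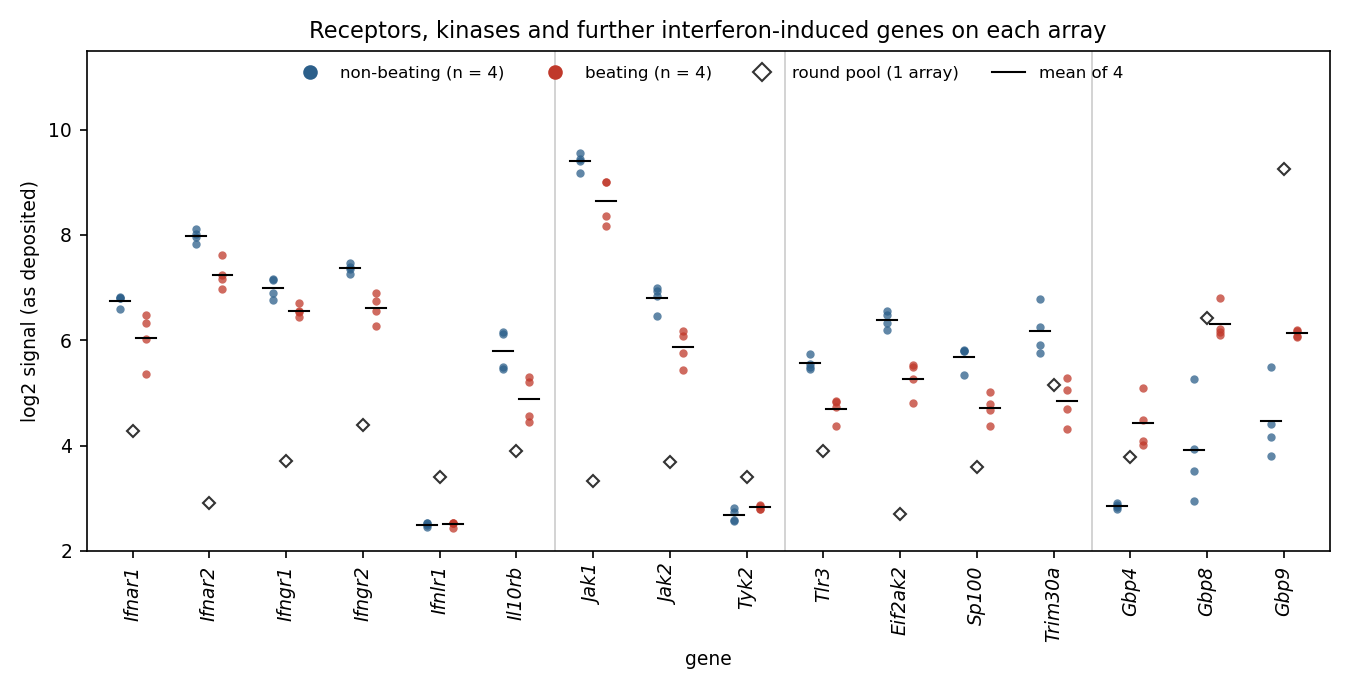
Log2 signal of the receptor chains, kinases, 4 further interferon-induced genes and 3 guanylate-binding proteins on every array. Dots are the 4 non-beating and 4 beating arrays, bars their means and diamonds the round pool; the dots of Gbp4, Gbp8 and Gbp9 are higher in beating cells, and those of Ifnar2, Ifngr2, Jak2, Tlr3, Eif2ak2, Sp100 and Trim30a lower.

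The round pool was described without a test, as it was a single array. Its values were below all 8 other arrays in 9 of the 29 genes and above all 8 in 6 genes, against 24.4% and 46.4% of all rows. With quantile normalisation of the 9 arrays these counts were 14 and 4, against 29.2% and 35.6% of all rows, and with each array centred on its median 18 and 1, against 47.7% and 25.1%. The round array differed from the others in its whole distribution. Its median difference from non-beating cells was -1.33 in the rows of the top quartile of signal, which held 10 of the 29 genes, and 0.32, 0.59 and 0.21 from the bottom quartile to the one below the top.

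Ifitm2, Ifitm3, Ifit1, Ifit2, Ifit3, Samhd1, Ddx58 and B2m were below all 8 arrays under all 3 scalings. The signals in the pool were 5.52 for Ifitm2, 7.85 for Ifitm3, 7.87 for B2m, 4.64 for Ifit3 and 4.41 for Samhd1. Their differences from the non-beating mean were -3.79, -3.40, -3.48, -3.49 and -2.84 as deposited and -2.79, -2.57, -2.65, -2.87 and -2.40 after quantile normalisation. The receptor chains Ifnar1 (4.28), Ifnar2 (2.91), Ifngr1 (3.70) and Ifngr2 (4.39) were also below their values on all 8 arrays. Psmb9, at 5.27, was above all 8 arrays as deposited and after quantile normalisation and within their range after centring, whereas its neighbours Psmb8 (4.51) and Tap1 (3.62) were within the range as deposited. Irf7, at 3.20, was above all 8 arrays under all 3 scalings, but below the median of its own array. The pool shared high signals of Gbp8 (6.43) and Gbp9 (9.26) with the beating cells, and Gbp9 was higher there than on any of the 8 arrays.

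**Figure D5:**
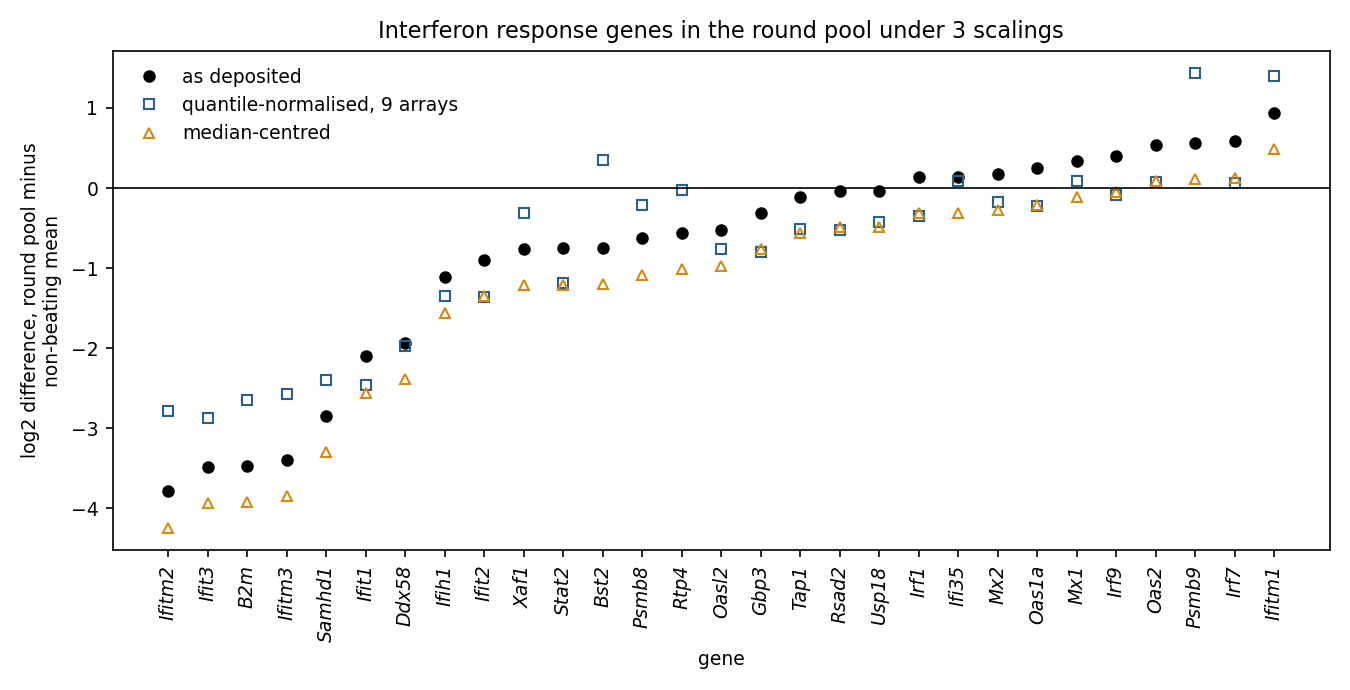
Log2 difference of the round pool (1 array) from the mean of the 4 non-beating arrays for each of the 29 genes, ordered by the deposited values, under 3 scalings. Ifitm2, Ifit3, B2m, Ifitm3 and Samhd1 lie far below 0 under each scaling, while several genes on the right change sign with the scaling.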

How the data were processed

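Per the methods of the study, RNA was amplified with the Ovation Pico WTA system and hybridised to Mouse Gene 1.0 ST arrays, and the authors log2-scaled, normalised and mean-centred the raw data in BRB-ArrayTools. The deposited table holds log2 signals that are not centred per gene; how it was made is not given in the sources used here. Values were used as deposited, and rows were named through the platform annotation with symbols and positions from RefSeq (GRCm38.p6).

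Beating and non-beating samples (n = 4 each) were compared over all 33323 rows by unpaired, moderated two-sided tests. The tests were run in limma (version 3.58.1, R 4.3.3), without the round pool. Calls required p under 0.05 after Benjamini-Hochberg adjustment. The fit was checked on simulated data. Every gene of the set was named, and of the further pathway genes up to 3 called genes of each role with the largest difference. Uncalled receptors, kinases and some interferon genes were named with their values. Members and lists were chosen with earlier results of these data known. The small number of arrays limits the precision. Alternatives covered scaling, row filters, the choice of row, array weights, the two-sample test of the methods, a replicate block and each array left out.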

Additional observations from a re-analysis of the deposited data

Results flagged for a closer look

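In 1 of 58 groups of 4 values, taken over the 29 genes and both day 28 groups, a single sample stood apart. This was Irf1 in non-beating replicate 3, at a log2 signal of 3.17, while the other 3 non-beating samples shared an identical value of 3.27. Chance alone sets apart a sample in about 1 in 20 groups, and the identical values make any distance from them count. No statement on Irf1 rests on that sample, as its difference did not pass the test.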

How the results depend on the processing

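The count of 10 lower genes was 8 to 12 under quantile normalisation, median centring, a filter on dim rows, the 1.5-fold prefilter, a trended fit, array weights, another choice of row and the round pool in the fit, and 0 genes were higher in each of these. It was 1 by the two-sample test, both adjusted and at an unadjusted p under 0.0001. Leaving out 1 array gave 4 to 8 genes, in some fits with a gene outside the 10, and a median difference of -0.43 to -0.33. It was 1 without the 2 non-beating arrays of highest macrophage mean and 0 (limma) without beating replicate 1 as well. The median difference was -0.56 over the 22 genes kept by the dim filter and -0.81 over the 12 kept by the prefilter, which tested fewer genes.

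Whether same-numbered samples shared dishes is not labelled, although the non-beating cells were the remaining cells of the dishes. Same-numbered beating and non-beating deviations correlated at -0.012 to 0.028, which with 4 samples a group cannot decide it. With the replicate block, 5 genes of the set and 8 further pathway genes were lower. Ifitm2, Samhd1, Psmb8, Psmb9 and Tap1 lost the call in that fit. The 15 lower pathway genes were 3 and the 3 higher 1 by the two-sample test, and with 1 array left out 3 to 10 (3 without non-beating replicate 2) and 1 to 3. For single genes of the set, 513 alternative values kept direction and side of the threshold, 79 fell below it and 8 newly passed it. The sign changed in 14 values of genes that did not pass, and in none of the called genes, where leaving out arrays could not change it. Irf1 was -0.0061 after quantile normalisation and -0.0064 after centring, and Ifitm1 -0.36 by the row of largest variance and -0.088 by the mean of its rows. Without the arrays of highest macrophage mean, Mx1 was 0.0054 and Ifi35 0.024, and without beating replicate 1 as well Mx1 was 0.0033. With 1 array left out, Irf1 ranged from -0.0018 to 0.088, Oas2 from -0.165 to 0.011, Ifi35 from -0.0996 to 0.025, Irf7 from -0.062 to 0.023 and Mx1 from -0.047 to 0.0028. The cause of these changes of sign was not tested.

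The median difference of the round pool from non-beating cells, -0.52 as deposited, was -0.42 after quantile normalisation and -0.98 after centring. That from beating cells, 0.084 as deposited, turned to -0.27 and -0.31. The cause was not tested.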
